A study of Mus musculus with 44 samples.

Results

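The genes described here are *Gm42418*, *CT010467.1* and *Gm23935*, loci whose sequence resembles ribosomal RNA (rRNA), and *Lars2*, which encodes the mitochondrial leucyl-tRNA synthetase. They are 4 of the 55335 genes in the table of Emx1-NuTRAP counts, and each was found by matching its versioned Ensembl identifier to its symbol in the GENCODE annotation of GRCm38. They were chosen by their counts in right hippocampi, where exercised and sedentary mice differed for these genes with p-values among the smallest in an earlier look at the same table. The right hippocampus is therefore described without a test, and tests are given for the left hippocampus, for the simultaneous isolations, and for how *Lars2* moves from library to library. The question asked of *Lars2* was whether its counts go with the rRNA-like loci or with the genes of the other aminoacyl-tRNA synthetases.

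Ribosomes are built on rRNA. In the nucleus of mouse cells, RNA polymerase I transcribes many tandem copies of a precursor that is cut into the 18S rRNA of the small subunit and the 5.8S and 28S rRNAs of the large subunit, and none of these carries a poly(A) tail. TRAP captures whole ribosomes with their mRNA, so rRNA makes up most of the captured RNA and is removed at the poly(A) selection before sequencing. Aminoacyl-tRNA synthetases load each tRNA with its amino acid, mostly with separate sets of enzymes for the cytosol and for mitochondria, both encoded in the nucleus. *Lars2* belongs to the mitochondrial set and loads leucine.

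All libraries came from male Emx1-NuTRAP mice, in which Emx1-Cre switches on tags for ribosomes and for the nuclear envelope, mostly in excitatory neurons of the hippocampus and cortex and also in neural progenitors. ELE (early-life exercise) mice had a running wheel from postnatal day 21 to 41, and sedentary mice had none. In the SIT libraries (simultaneous INTACT and TRAP) both hippocampi of a mouse were combined, with 4 ELE and 4 sedentary mice. In the separate isolations a single hippocampus was used for TRAP, with 3 ELE and 3 sedentary mice for the left and the same numbers for the right. Isolation therefore changes together with the mice and with the amount of tissue. It was compared with the left hippocampus alone, so side changes with it too, and these cannot be told apart.

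Libraries held between 45895097 and 65767802 counts. Excitatory neuron markers (*Slc17a7*, *Camk2a*, *Neurod6*, *Prox1*, *Emx1*, *Rbfox3*) summed to between 6691 and 9996 CPM in the 20 libraries. Markers of microglia summed to a median of 2.21 CPM and those of endothelium to 1.13 CPM, but oligodendrocyte markers, *Mbp* among them, reached 1751 to 3976 CPM. A pair of sedentary SIT libraries (NT7.2.3, NT7.2.4) stood apart, with 8.64% and 9.64% of counts from the mitochondrial genome, where no other library exceeded 0.523%. The SIT library of ELE mouse TG7.4.2 stood apart in the genes described here.

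The 4 genes lie on 3 chromosomes. *Gm42418* (ENSMUSG00000098178.1), annotated as a long intergenic RNA, is a single exon on the plus strand at chr17:39846958-39848788. *CT010467.1* (ENSMUSG00000106106.2), annotated as rRNA, covers the same place on the minus strand at chr17:39846353-39848827. *Gm23935* (ENSMUSG00000076258.1), annotated as a miRNA, is 57 bases long on the plus strand at chr16:11144125-11144181. *Lars2* (ENSMUSG00000035202.8) is a protein-coding gene on the plus strand at chr9:123366927-123462666.

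The overlap of *Gm42418* and *CT010467.1* is shown by 60 bases at chr17:39848089-39848148 of GRCm38, from a shared stretch outside the gene *AY036118* described next, because the pair were counted as different genes and hold the same sequence read from opposite strands. The plus strand reads in the sense direction of 18S rRNA, which is stated as background and was not tested here.
Gm42418, plus strand: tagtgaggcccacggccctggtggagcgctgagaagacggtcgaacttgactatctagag
CT010467.1, minus strand: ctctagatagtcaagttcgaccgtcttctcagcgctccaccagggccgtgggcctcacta
The longer transcript of *CT010467.1* shares 1244 bases with *Gm42418* on the opposite strand. Among all annotated transcripts, *Gm42418* and *AY036118* were the only other genes with an exact run of 30 or more bases in common with *CT010467.1*. *AY036118* lies wholly inside *CT010467.1* on the same strand (chr17:39847113-39848035) and had 0 counts in all 20 libraries. The authors' counting mode gives no count to bases that 2 genes share on a strand, so *CT010467.1* was counted on its bases outside *AY036118*.

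*Gm23935* is 1 of a family of near-identical short loci, all annotated as miRNAs. Their sequences are shown because *Gm23935* turned out to be the closest match of *Lars2*, by Pearson's r with or without group means and by Spearman's rho. Capitals mark bases that differ from *Gm23935*.
Gm23935, chr16:11144125-11144181, plus strand: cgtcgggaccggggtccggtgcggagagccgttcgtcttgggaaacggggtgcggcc
Gm24270, chr9:56223715-56223771, minus strand: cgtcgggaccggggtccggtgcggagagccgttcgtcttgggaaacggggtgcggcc
Gm24187, chr13:9834469-9834525, minus strand: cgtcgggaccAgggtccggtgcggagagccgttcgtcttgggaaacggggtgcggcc
Gm25911, chr1:167340369-167340424, minus strand: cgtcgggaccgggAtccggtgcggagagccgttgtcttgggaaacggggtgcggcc
*Gm24270* is identical to *Gm23935*, *Gm24187* differs by G11A, and *Gm25911* differs by G14A and lacks the base at position 34, counting from 1 at the 5′ end. Another locus with the identical 57 bases, *Gm24245* (chr4:139338304-139338360, plus strand), had 0 counts. The sequence occurs in the large-subunit rRNA, by background knowledge. A read that fits several of these places cannot be assigned with certainty, so the split of counts within the family is uncertain. *Gm23935* held most of the family's counts. Over the 20 libraries it had 111065 counts, against 4059 for *Gm24270*, 2771 for *Gm25911* and 2490 for *Gm24187*.

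Over the 9 annotated transcripts of *Lars2* and both strands, the longest exact run shared with *Gm42418* was 12 bases, with *CT010467.1* 13 bases and with *Gm23935* 8 bases. Its 3′ UTR, in the last of 21 exons of the main transcript, does hold sequence that other loci share. There *Lars2* and *Gm15564* have in common an exact run of 52 bases at chr9:123462048-123462099, of which the opening 30 bases (chr9:123462048-123462077) are shown.
Lars2, 3′ UTR, plus strand: gaattcaccaagcgttggattgttcaccca
A second run of 41 bases in the same exon, at chr9:123461942-123461982, is shared with *AA474408*. Both loci had few counts, 8 to 53 a library for *Gm15564* and 39 to 131 for *AA474408*. Both runs read in the sense direction of large-subunit rRNA, again as background. The deposited values are sums per gene, so where on *Lars2* the counts fell was not measured.

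*Gm42418* took between 0.0468% and 0.717% of the counts of a library, with a median of 0.0930%. In the SIT libraries of ELE mice its share was 0.0982%, 0.119%, 0.125% and, in TG7.4.2, 0.717%. In the SIT libraries of sedentary mice it was 0.0586%, 0.0751%, 0.0878% and, in NT6.305, 0.189%. TG7.4.2 thus stood far above all other libraries, and the remaining SIT libraries overlapped between ELE and sedentary mice. On the left, *Gm42418* took 0.0468%, 0.0690% and 0.105% in ELE and 0.0507%, 0.105% and 0.114% in sedentary mice, and the groups overlapped. On the right it took 0.0853%, 0.0998% and 0.102% in ELE and 0.0515%, 0.0521% and 0.0606% in sedentary mice, which is the gap by which the genes were picked. These shares rest on at least 23918 counts, and their 95% Wilson intervals reach at most 1.27% of the value to either side, for counting error only.

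*CT010467.1* kept close to *Gm42418* in every library. For each 100 counts of *Gm42418* it had between 85.4 and 102, although the genes lie on opposite strands and the authors counted by strand. Its share ran from 0.0399% to 0.731%, and in TG7.4.2 it was the gene with the most counts of all 55335. Over the 20 libraries the log2 CPM of the pair had a Pearson r of 0.999. They share sequence on opposite strands, so the values of one are not counted here as independent support for the other.

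*Gm23935* took 0.00418% to 0.0371% of counts. In SIT its share was 0.00926%, 0.00937%, 0.0112% and 0.0371% in ELE and 0.00428%, 0.00517%, 0.0102% and 0.0274% in sedentary mice. TG7.4.2 was again the highest, and NT6.305 came next. On the left the shares were 0.00580%, 0.00653% and 0.00791% in ELE and 0.00584%, 0.0117% and 0.0118% in sedentary mice, so that 1 sedentary library fell among the ELE ones. On the right they were 0.00718%, 0.00910% and 0.0102% in ELE and 0.00418%, 0.00483% and 0.00560% in sedentary mice.

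*Lars2* took 0.00617% to 0.0407% of counts, and TG7.4.2 and NT6.305 were again the highest libraries. In SIT its share was 0.0109%, 0.0134%, 0.0183% and 0.0407% in ELE and 0.00617%, 0.00851%, 0.0210% and 0.0397% in sedentary mice. The highest values were 1 in each group, and the lowest were NT7.2.3 and NT7.2.4. On the left it took 0.00835%, 0.0109% and 0.0114% in ELE and 0.0114%, 0.0178% and 0.0193% in sedentary mice. The shares did not overlap, by a small margin, and how many of all genes do so was not counted. On the right it took 0.0120%, 0.0129% and 0.0133% in ELE and 0.00658%, 0.00751% and 0.00955% in sedentary mice, which is the opposite order.

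**Figure D1:**
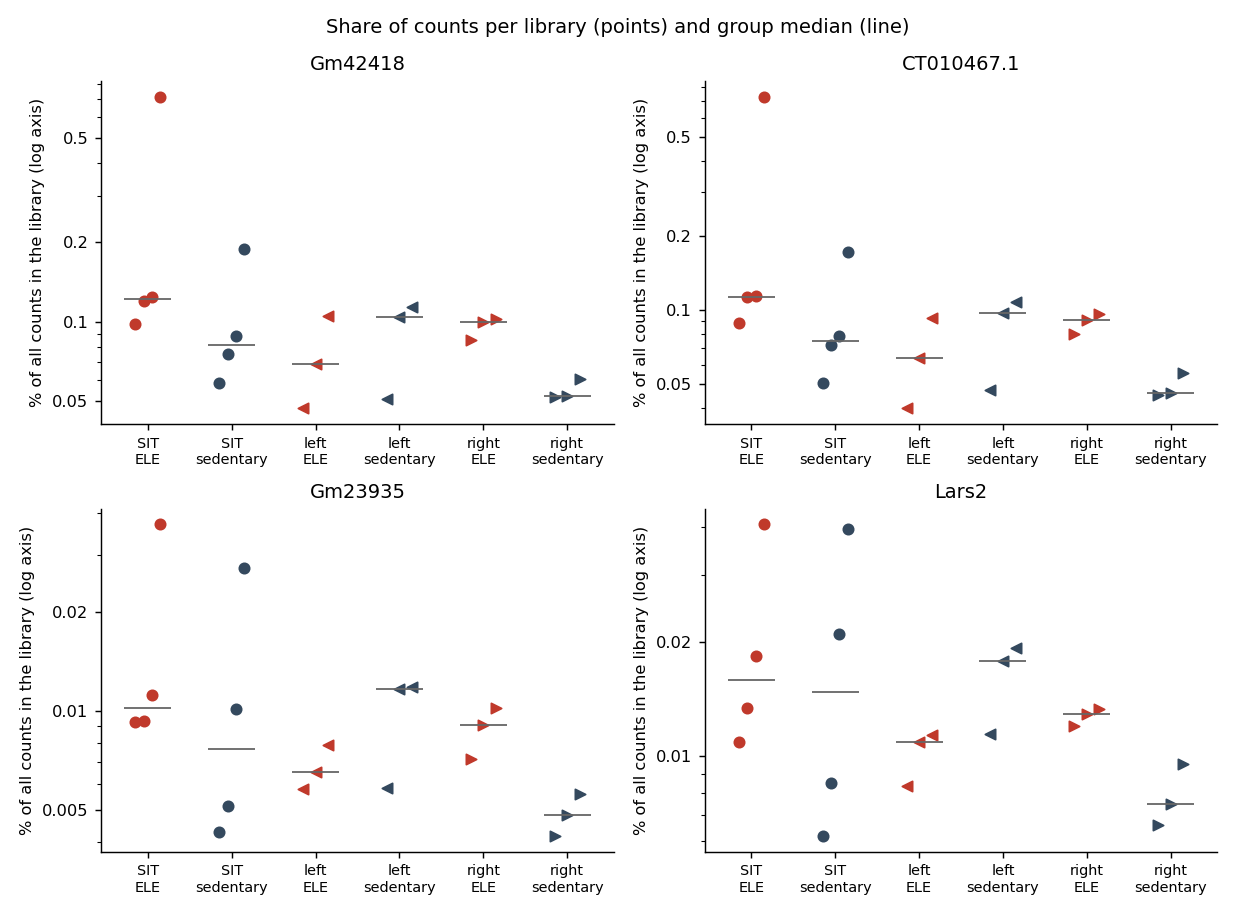
Share of all counts of a library (percent, log axis) taken by each gene, with 1 point per library, a line at the group median, red for ELE and dark grey for sedentary mice. TG7.4.2 is the top SIT ELE point at 0.717% for Gm42418 and 0.0407% for Lars2, and the shares on the right are higher in ELE for all 4 genes.

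From library to library, *Lars2* rose and fell with *Gm23935*. Levels were compared as log2 of TMM-scaled CPM plus 0.5. The permutation tests take libraries as exchangeable, although in SIT both NT7.2 mice were sedentary and both TG7.4 mice ELE. How many of all genes reach such values within SIT or within the left was not counted. Within the 8 SIT libraries, *Lars2* and *Gm23935* had a Pearson r of 0.945 (exact permutation test, two-sided, p = 0.000496, adjusted p = 0.00298 over 6 relations) and a Spearman rho of 0.929 (exact permutation p = 0.00223, adjusted p = 0.0134). Without TG7.4.2 and NT6.305, the libraries farthest from the median of *Gm23935*, r was 0.824. Within the 6 left libraries r was 0.923 (exact permutation p = 0.0278, adjusted p = 0.0417) and rho 0.657 (exact permutation p = 0.175, adjusted p = 0.175). The relation on the left rested on the sedentary libraries TG9.1.2 and TG7.3.4, without which r was 0.346. Over all 20 libraries, as a description, r was 0.934, and it was 0.916 after each group's mean was subtracted.

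Pearson's r with *Gm42418* was lower in SIT and on the left, Spearman's rho was lower in SIT and higher on the left, and whether they differ from those with *Gm23935* was not tested. In SIT, *Lars2* and *Gm42418* had an r of 0.738 (exact permutation p = 0.0176, adjusted p = 0.0352) and a rho of 0.667 (exact permutation p = 0.0831, adjusted p = 0.0997). This relation rested on TG7.4.2 and NT6.305, and r was 0.18 without them. On the left, r was 0.770 (exact permutation p = 0.0861, adjusted p = 0.0861) and rho 0.829 (exact permutation p = 0.0583, adjusted p = 0.0997). *CT010467.1* gave 0.747 in SIT (exact permutation p = 0.0137, adjusted p = 0.0352) and 0.810 on the left (exact permutation p = 0.0667, adjusted p = 0.0800). Its rho with *Lars2* was 0.667 in SIT and 0.829 on the left, with the same p-values as for *Gm42418*. Without the 2 libraries farthest from its median, TG7.4.2 and NT7.2.3, the SIT value was 0.484. The 6 right libraries, which had been used to pick the genes, had the opposite order, with an r of 0.783 for *Lars2* with *Gm23935* and 0.850 with *Gm42418*.

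*Lars2* had between 110 and 206 counts for each 100 of *Gm23935*, a 1.88-fold range, while the level of *Lars2* itself ranged over 6.60-fold as a share of counts. For each 100 counts of *Gm42418* it had between 5.68 and 28.0, a 4.92-fold range. The lowest of these ratios belonged to TG7.4.2, without which the range was 8.75 to 28.0, or 3.20-fold. TG7.4.2 was the library in which *Gm42418* and *CT010467.1* were raised further above the other libraries than *Gm23935* and *Lars2* were. Since a ratio of counts depends on gene length, only its change between libraries is compared here.

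**Figure D2:**
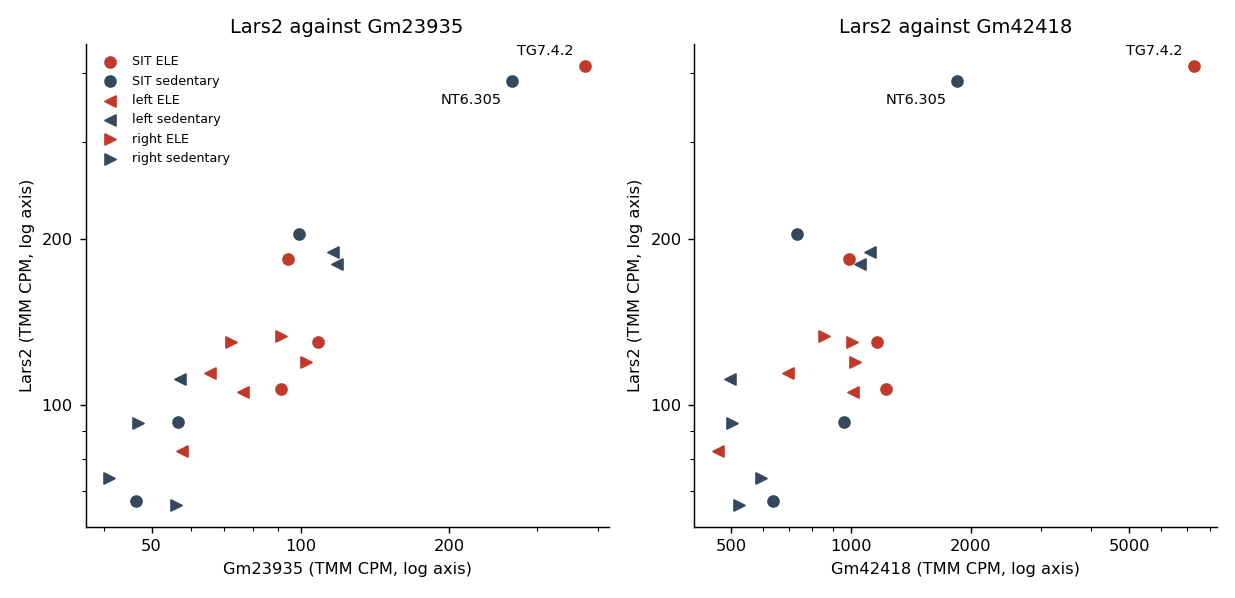
Level of Lars2 (TMM CPM, log axis) against Gm23935 and against Gm42418 (TMM CPM, log axes), with 1 point per library, red for ELE and dark grey for sedentary mice, circles for SIT and triangles for left and right hippocampi. Lars2 rises with Gm23935 over the whole range (r = 0.934 over 20 libraries), and TG7.4.2 lies far to the right of the others for Gm42418.

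Among the 19934 other genes with enough counts to test, the 5 most like *Lars2* over the 20 libraries were *Gm23935* (r = 0.934), *Gm25911* (0.916), *Gm24270* (0.871), *Gm24187* (0.839) and *Gm8399* (0.836), an annotated processed pseudogene. The 4 loci of the short family that were measured took ranks 1 to 4, over 20 libraries that include the 6 right ones used to pick *Lars2* and *Gm23935*. *CT010467.1* came at rank 9 and *Gm42418* at rank 13. The median r of all genes with *Lars2* was -0.03, and 35 genes had an r of at least 0.75. The points share library depth and scaling, so these values are a description without a test. With group means subtracted, *Gm23935* stayed at rank 1, but 301 genes reached 0.75, *Gm25911*, *Gm24187* and *Gm24270* came at ranks 7, 25 and 29, and *Gm42418* at rank 345. By Spearman's rho the 4 loci came at ranks 1, 3 (*Gm25911*), 4 (*Gm24270*) and 35 (*Gm24187*), with *Gm8399* at rank 2. Over the 14 SIT and left libraries, without the right ones, *Gm23935* (0.945), *Gm25911* (0.937) and *Gm24270* (0.916) took ranks 1 to 3 and *Gm24187* rank 8. There 265 genes had an r of at least 0.75 with *Lars2*, and *CT010467.1* and *Gm42418* came at ranks 185 and 221.

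For *Gm42418* the 5 most alike genes were *CT010467.1* (r = 0.999), *Gm23935* (0.893), *Gm24270* (0.848), *Ten1* (0.833), which encodes a telomere-capping protein, and *Gm3512* (0.799). *Lars2* came at rank 7 of 19934 with r = 0.789, and at rank 43 with 0.760 without the right libraries. By Spearman's rho, which gives TG7.4.2 no extra weight, *Lars2* came at rank 21 for *Gm42418* with 0.678 and at rank 2 for *Gm23935* with 0.902.

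The genes of the other synthetases were set beside *Lars2* over the same 20 libraries, which include the 6 right libraries that served to pick *Lars2* and the loci but not the synthetases. Of 37 listed genes, 21 cytosolic and 16 mitochondrial, all were measured, and their r with *Lars2* lay between -0.75 (*Mars2*) and 0.39 (*Fars2*), with a median of -0.19 beside -0.03 for all genes. Only 11 of the 37 had an r above 0 with *Lars2*, and 7 had one above 0 with *Gm42418*. None reached the r of 0.789 between *Lars2* and *Gm42418*. The highest with *Gm42418* were the mitochondrial *Hars2* (0.35), *Sars2* (0.32) and *Nars2* (0.25), which load histidine, serine and asparagine. The lowest were the mitochondrial *Rars2* (-0.69) for arginine and the cytosolic *Dars* (-0.65) and *Qars* (-0.60) for aspartate and glutamine. The levels of the 37 genes differed between the highest and the lowest library by 1.36-fold (*Farsb*) to 3.73-fold (*Cars*), with a median of 1.84-fold, against 6.25-fold for *Lars2* on the same TMM CPM scale. With group means subtracted the highest synthetase was *Fars2* with an r of 0.63 with *Lars2*, and by Spearman's rho it was *Hars2* with 0.44. Subtracting group means put the median of the 16 mitochondrial genes at 0.05, with 9 above 0.

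Without the right libraries the r of *Lars2* over 14 libraries was 0.945 with *Gm23935* and 0.760 with *Gm42418*, and that of the 37 synthetases lay between -0.79 (*Rars2*) and 0.50 (*Fars2*), with a median of -0.12 beside -0.04 for all genes and 13 above 0. Within the 8 SIT libraries the highest synthetases were *Kars* for lysine (0.72), listed here as cytosolic, and the mitochondrial *Pars2* for proline (0.72). They came close to *Gm42418* (0.738) and below *Gm23935* (0.945). Within the 6 left libraries the highest was *Dars* (0.60), and the median of the 37 was 0.07, with 20 above 0, so that the synthetases had no common direction there. These values are a description.

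**Figure D3:**
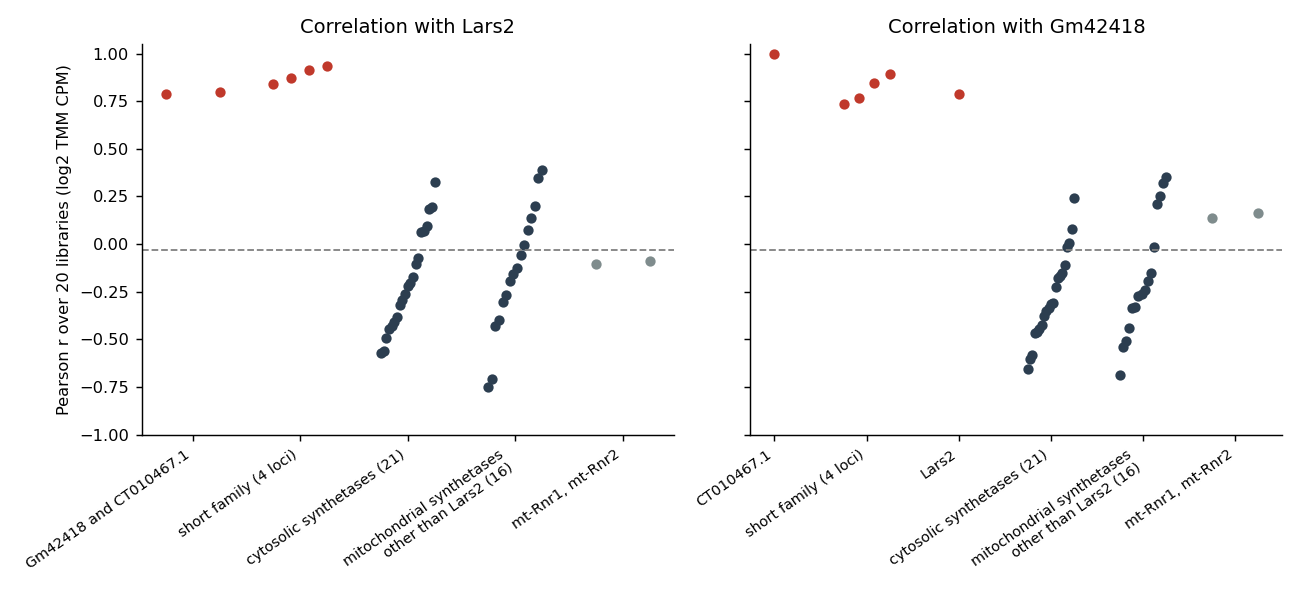
Pearson r over 20 libraries of log2 TMM CPM with Lars2 (left) and with Gm42418 (right), with 1 point per gene and a dashed line at the median of all genes tested. The rRNA-like loci lie above 0.7 in both panels, and the 37 synthetases lie between -0.75 and 0.39.

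Other structural RNAs were examined in the same way. Of 16 listed RNAs, 13 had counts and 5 had a mean of at least 1 CPM. *mt-Rnr1* and *mt-Rnr2*, the rRNAs of the mitochondrial ribosome, had an r of 0.16 and 0.14 with *Gm42418* and -0.09 and -0.11 with *Lars2*. In the SIT libraries of sedentary mice *mt-Rnr1* ran from 71.4 to 4077 CPM and in those of ELE mice from 51.4 to 175 CPM. The high values were in NT7.2.3 and NT7.2.4, whose share of mitochondrial rRNA was 0.754% and 0.895%, whereas their *Gm42418* shares of 0.0586% and 0.0878% were within the range of the left libraries. The nuclear RNAs *Malat1* and *Neat1* had an r of 0.03 and 0.03 with *Gm42418*, and -0.20 and -0.25 with *Lars2*. *Gm26917*, another RNA on the list, had -0.55 and -0.52. None of the 353 other genes of the rRNA biotype reached a mean of 1 CPM.

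**Figure D4:**
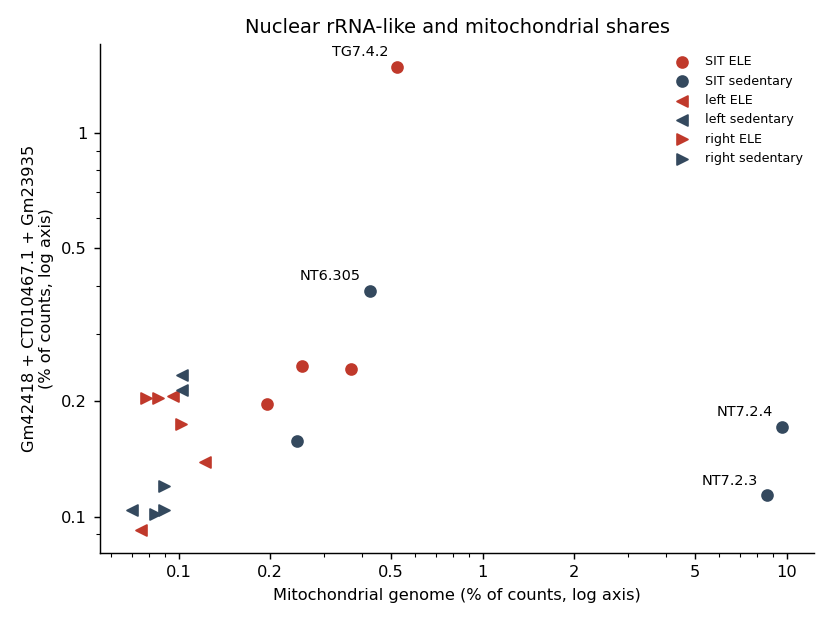
Summed share of Gm42418, CT010467.1 and Gm23935 (percent of counts, log axis) against the share of the mitochondrial genome (percent of counts, log axis), with 1 point per library and colours and shapes by group. TG7.4.2 is highest on the vertical axis at 1.48%, and NT7.2.3 and NT7.2.4 are farthest to the right at 8.64% and 9.64%.

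ELE and sedentary mice were then compared with edgeR's quasi-likelihood test across all genes. A gene was called at an unadjusted p under 0.05 with a change of more than 1.31-fold, and values adjusted by the Benjamini-Hochberg method are given beside it. In the left hippocampus, *Lars2* was lower in ELE mice by the unadjusted rule, with 101 ± 16.3 TMM CPM (SD, n = 3) against 161 ± 42.6 (SD, n = 3). Its log2 fold change was -0.67 with a standard error of 0.20 (edgeR adjusted p = 0.960). The log2 fold change was -0.55 ± 0.25 (SE) for *Gm23935* (edgeR adjusted p = 0.960), -0.30 ± 0.34 for *Gm42418* (0.962) and -0.37 ± 0.35 for *CT010467.1* (0.960), and none of these passed. *Gm23935* was called as well when TG7.3.2 (-0.67) or TG9.2.4 (-0.82) was left out, and with no filter on low counts (-0.55). Markers of other cells also differed on the left. Oligodendrocyte markers summed to 2093 to 2340 CPM in ELE and 2364 to 2738 CPM in sedentary mice, without overlap, and choroid plexus markers to 3.10 to 911 CPM and 12.5 to 1167 CPM. Their part in these values was not tested. The rule called 1 of the 4 genes, where it called 2.07% of the 17750 genes tested. At an adjusted p under 0.05 edgeR called 0 genes (0%), with 700 at an unadjusted p under 0.05, and DESeq2 also called 0.

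The rest of the short family pointed the same way on the left. *Gm25911* (log2 fold change -1.09 ± 0.37, edgeR adjusted p = 0.960) and *Gm24187* (-1.20 ± 0.40, edgeR adjusted p = 0.960) were lower in ELE mice by the unadjusted rule, and *Gm24270* (-0.53 ± 0.36) did not pass. None of the 37 synthetases was called in either direction, where the rule called 2.07% of all genes tested on the left. Their median log2 fold change was 0.07 beside 0.00 for all genes. By shares of counts, the exact permutation test for *Lars2* gave p = 0.1, the smallest that 3 libraries against 3 allow (adjusted p = 0.6 over 8 tests). The shares of *Gm42418*, *CT010467.1* and *Gm23935* gave exact permutation p-values of 0.6, 0.5 and 0.3.

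In SIT, 1 of the 4 genes passed the unadjusted rule, and all 4 fitted values were above 0. *CT010467.1* was higher in ELE mice by the unadjusted rule with a log2 fold change of 1.48 ± 0.67 (edgeR adjusted p = 0.547). *Gm42418* had 1.35 ± 0.63 (edgeR adjusted p = 0.554), *Gm23935* 0.52 ± 0.60 (edgeR adjusted p = 0.804) and *Lars2* 0.16 ± 0.55 (edgeR adjusted p = 0.944). The rule called 1 of the 4 genes beside 7.7% of the 17531 tested. At an adjusted p under 0.05 edgeR called 0 genes (0%), with 1590 at an unadjusted p under 0.05, while DESeq2 called 243. The exact permutation test of shares gave p = 0.257 for *Gm42418*, 0.257 for *CT010467.1*, 0.486 for *Gm23935* and 0.629 for *Lars2*, with 4 libraries against 4 and a smallest possible p of 0.0286.

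The SIT values depended on which libraries entered. Both TG7.4 mice were ELE and both NT7.2 mice sedentary, so in these 4 of the 8 libraries exercise and mouse number cannot be told apart, and NT6 is the only number in both groups. Without TG7.4.2 the log2 fold changes were 0.12 for *Gm42418*, 0.14 for *CT010467.1*, -0.25 for *Gm23935* and -0.41 for *Lars2*. Without NT6.305 they were 1.79, 1.91, 1.32 and 0.79 in the same order. *Lars2* also fell below 0 without NT7.2.3 (-0.13) and without NT7.2.4 (-0.07). The unadjusted call of *CT010467.1* was lost without TG7.4.2, NT6.306, NT7.2.3 or NT7.2.4, as well as with DESeq2's size factors (1.48) and in the study's 5 libraries. *Gm42418* gained a call without NT6.303, NT6.304, TG7.4.1 or NT6.305 and with no filter on low counts (1.35), as did *Gm23935* without NT6.305. Calls in the other direction, lower in ELE mice, came for *Lars2* among the mice numbered NT6 (-1.02), and for *Lars2* (-1.07) and *Gm23935* (-0.91) without TG7.4.2, NT7.2.3 and NT7.2.4, where the rule called 6.65% and 4.77% of all genes. Among the 4 mice numbered NT6 the log2 fold changes of the 4 genes were -0.22, -0.25, -0.98 and -1.02, and in the study's own 5 libraries 1.32, 1.43, 0.06 and -0.45. Those 5 libraries, recognised among 24 subsets from mean normalized counts, leave out NT6.304, NT7.2.3 and NT7.2.4 and keep TG7.4.2. Of the 37 synthetases only *Vars2*, for mitochondrial valine, was called in SIT, with a log2 fold change of -0.61. Of the 7 other structural RNAs that could be tested, 5 were called lower in ELE mice (*mt-Rnr1*, *mt-Rnr2*, *Malat1*, *Neat1* and *Rn7s1*), against the direction of *CT010467.1* and beside 7.7% of all genes called in either direction. The mitochondrial rRNA share was 0.754% and 0.895% in NT7.2.3 and NT7.2.4 and at most 0.0270% in the other sedentary SIT libraries. Markers of other cells also differed between the SIT groups. Interneuron markers summed to 70.6 to 769 CPM in sedentary and 59.96 to 104 CPM in ELE mice, and microglia markers to 2.52 to 104 CPM and 1.69 to 6.23 CPM. Endothelium markers separated the groups without overlap, though near 0, with 1.004 to 7.12 CPM in sedentary and 0.505 to 0.898 CPM in ELE mice. Choroid plexus markers summed to 489 to 984 CPM and 109 to 536 CPM, and oligodendrocyte markers to 2625 to 3976 CPM and 1955 to 2965 CPM. Astrocyte and excitatory neuron markers overlapped as well, at 431 to 529 CPM and 341 to 579 CPM, and at 6691 to 7487 CPM and 6807 to 7677 CPM. Their part in these values was not tested.

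In the right hippocampus, by which the genes were picked, the fitted difference between ELE and sedentary mice on the log2 scale was 0.84 ± 0.10 (SE) for *Gm42418*, 0.89 ± 0.11 for *CT010467.1*, 0.89 ± 0.15 for *Gm23935* and 0.72 ± 0.12 for *Lars2*. These values are a description. The sedentary libraries of the left were above those of the right by 0.72, 0.79, 1.02 and 1.049 in the same order, and the ELE libraries of the left were below those of the right by a log2 fold change of -0.41, -0.47, -0.42 and -0.35. The left and right fits of exercise share no libraries, and the fitted values of all 4 genes were below 0 on the left. Marker sums of every listed cell type overlapped between ELE and sedentary mice on the right. Choroid plexus markers there ran from 2.64 to 19.9 CPM in ELE and from 14.2 to 1071 CPM in sedentary mice. Their median in sedentary mice was 950 CPM on the left and 55.5 CPM on the right, and their part was not tested.

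**Figure D5:**
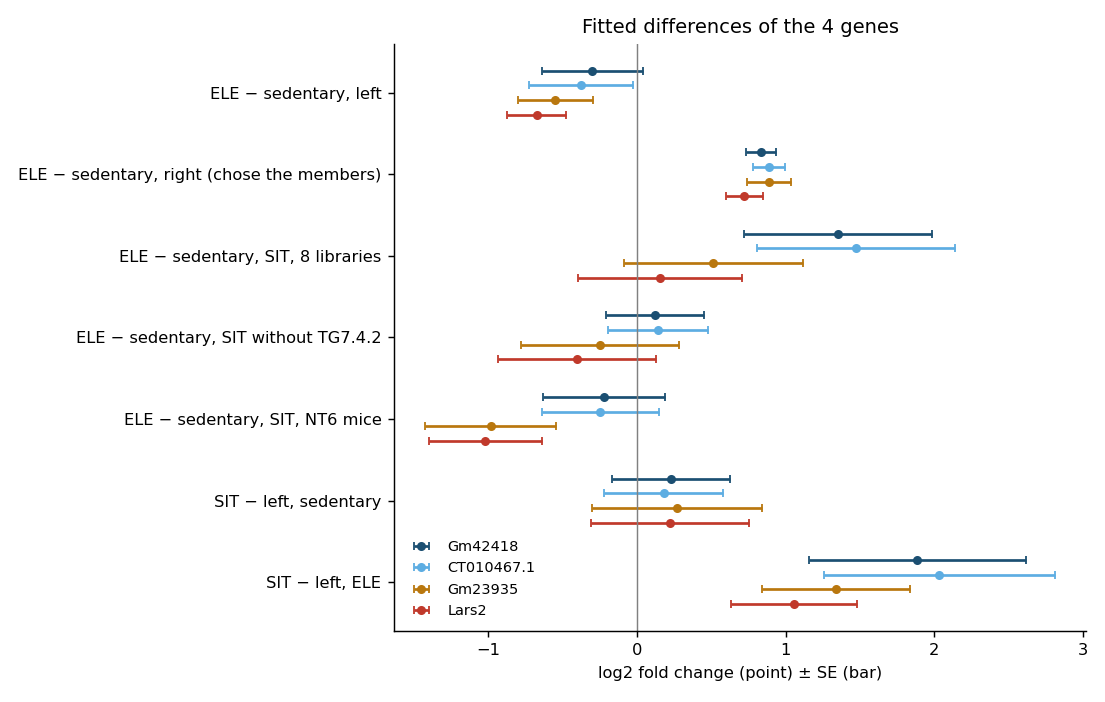
Fitted log2 fold change (point) with its standard error (bar) of the 4 genes in each comparison. All 4 lie below 0 on the left and above 0 on the right, and in SIT they move from 1.35 for Gm42418 with 8 libraries to 0.12 without TG7.4.2.

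Isolation was compared within each exercise group, SIT minus left. In ELE mice all 4 genes were higher in SIT by the unadjusted rule. The log2 fold change was 1.89 ± 0.73 for *Gm42418* (edgeR adjusted p = 0.305), 2.03 ± 0.78 for *CT010467.1* (0.297), 1.34 ± 0.50 for *Gm23935* (0.284) and 1.06 ± 0.42 for *Lars2* (0.320). The rule called 8.34% of 17944 genes in this comparison. At an adjusted p under 0.05 edgeR called 0 of them (0%), with 2424 at an unadjusted p under 0.05, and DESeq2 called 636. Without TG7.4.2 the values were 0.64, 0.68, 0.56 and 0.48, and *Lars2* was no longer called. *Lars2* also lost its call with DESeq2 (1.055) and without TG7.3.2 or TG9.2.2 (1.08 and 0.92), and the other 3 genes lost theirs without TG9.1.4 (1.32 to 2.02) or TG9.2.2 (1.23 to 1.77). The 3 other loci of the short family were called as well, with values of 1.20 to 2.06. Of the synthetases, 4 were called, and all were lower in SIT (*Vars*, *Iars2*, *Qars* and *Mars*). Other measures separated the same libraries without overlap. Excitatory neuron markers summed to 6807 to 7677 CPM in SIT and 8013 to 8901 CPM on the left, astrocyte markers to 341 to 579 CPM and 635 to 759 CPM, and the mitochondrial share was 0.195% to 0.523% in SIT and 0.0750% to 0.122% on the left. Their part in the difference was not tested.

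In sedentary mice no difference between the isolations passed the test for these genes. The values were 0.23 ± 0.40, 0.18 ± 0.40, 0.27 ± 0.57 and 0.23 ± 0.53 in the same order (edgeR adjusted p between 0.824 and 0.877). The unadjusted rule called 12.7% of 18186 genes here, and 1.21% had an adjusted p under 0.05, with none of the 4 among either. Without NT6.305 all 4 turned below 0, to between -0.53 and -0.20, and without the left library TG9.2.4 *Gm42418*, *CT010467.1* and *Gm23935* did, to between -0.12 and -0.0050. With only the SIT sedentary libraries the study kept, NT6.305 and NT6.306, *Lars2* was higher in SIT by 0.88 (edgeR adjusted p = 0.0316) and *Gm23935* by 0.91 (edgeR adjusted p = 0.107). In that fit 14.5% of the 18220 genes tested had an adjusted p under 0.05, and the unadjusted rule, which both of these genes passed, called 14.4%. Among all sedentary libraries, other measures separated SIT from left without overlap. Excitatory neuron markers summed to 6691 to 7487 and 8293 to 9735 CPM, and astrocyte markers to 431 to 529 and 631 to 796 CPM. The mitochondrial share was 0.245% to 9.64% and 0.0704% to 0.103%. Interneuron and microglia markers separated too, and the other marker sums overlapped. Their part in the difference between sedentary groups was not tested.

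The exercise effect was not shown to differ between SIT and the left hippocampus. The interaction had a log2 value of 1.66 ± 0.87 for *Gm42418*, 1.86 ± 0.91 for *CT010467.1*, 1.07 ± 0.82 for *Gm23935* and 0.83 ± 0.74 for *Lars2* (edgeR adjusted p = 0.973 for each). None of the 4 passed the unadjusted rule, which called 4.33% of 19390 genes. At an adjusted p under 0.05 edgeR called 0 (0%), with 865 at an unadjusted p under 0.05, and DESeq2 called 10. Without TG7.4.2 the interaction was 0.43, 0.52, 0.30 and 0.27. Without NT6.305 it was 2.08, 2.28, 1.867 and 1.46, and all 4 then passed the unadjusted rule, as did 8% of all genes. *CT010467.1* and *Gm42418* also passed it without NT6.303, NT6.304 or TG7.4.1 and with no filter on low counts, and *CT010467.1* without TG7.3.2 or TG9.2.4.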

How the data were processed

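TRAP-seq of 20 Emx1-NuTRAP libraries was used. The authors aligned reads with STAR 2.7.3a to GRCm38, removed duplicates with Picard 1.87, counted fragments on exons by strand with GenomicAlignments (mode IntersectionNotEmpty), and deposited whole-number counts per gene. How reads that fit several loci were treated is not given in the sources used here. Reads were counted after poly(A) selection and duplicate removal, both of which can change the share of abundant structural RNA. Columns carry mouse numbers, which were tied to the groups of the labels through the study's list of mice. A second table of 24 columns could not be tied to samples and was not used.

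Identifiers were matched to GENCODE for 54587 of 55335 genes. Shares are percent of all counts of a library. Genes were filtered with filterByExpr, scaled with TMM and compared with the quasi-likelihood test of edgeR 4.0.16 (R 4.3.3), fitting only the groups compared and adjusting over all genes tested. Standard errors are the absolute log2 fold change over the square root of F. Permutation tests were exact and two-sided. The p-values set a difference or correlation against the spread between these libraries, each taken as independent. Correlations used log2 of CPM plus 0.5. Sequences were read from the GENCODE transcripts of GRCm38. DESeq2 1.42.0, its size factors, no filter, other library sizes, a block on mouse number, other SIT libraries and each library left out were tried.

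The 4 genes and the lists were chosen with earlier results of these data known. Beside them, the text names the 5 genes most like *Gm42418* and *Lars2*, the 3 synthetases with the highest and lowest r with *Gm42418*, structural RNAs averaging 1 CPM or more, and genes that share 30 bases with *CT010467.1*. Other synthetases, *Gm15564*, *AA474408*, *Rn7s1* and the short family's tests were named after their values were seen. One listed astrocyte marker was not analysed here. *Aldh1l1* and *Slc1a3* summed to 341 to 796 CPM, interneuron markers to 39.2 to 769 CPM and choroid plexus markers to 2.64 to 1167 CPM. Where marker sums are said not to overlap between groups, how often other genes do so was not counted. On simulated counts with 100 genes changed 2-fold and 100 changed 4-fold, an adjusted p under 0.05 recovered 62% and 81% of them among 17750 genes in the left design, and 51% and 75% among 17531 in the SIT design. These counts were drawn with edgeR's trended dispersion, without mouse numbers or outlying libraries. The rates are those of randomly drawn genes and were not measured for the 4 genes.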

Additional observations from a re-analysis of the deposited data

Results flagged for a closer look

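In the 4 SIT libraries of ELE mice, TG7.4.2 lay apart from the other 3 for *Gm42418* (0.717% of counts), *CT010467.1* (0.731%) and *Gm23935* (0.0371%). The gap to the next library was 0.957, 0.962 and 0.931 of the whole range of the group, above the limit of Dixon's test for 4 values. Of 8 combinations of gene and SIT group examined, these 3 passed, and they are 1 library, where chance passes about 1 in 20. *Lars2* was also highest in TG7.4.2, but its gap stayed within the limit. The library's mitochondrial share was 0.523%, against 0.195% to 0.368% in the other 3.

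The share of *Lars2* was lower in all 3 ELE libraries than in all 3 sedentary libraries on the left (mean log2 difference -0.64) and higher in all 3 on the right (0.71). On the left this separation had an exact permutation p of 0.1, and the share of all genes that separate in this way was not counted. The difference between the sides was not tested, because the right libraries had been used to pick the gene. On the TMM CPM scale the left groups overlapped, with 1 ELE library at 114 CPM and 1 sedentary library at 112 CPM.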

How the results depend on the processing

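The 4 genes on the left kept a fold change below 0 under every alternative run. In SIT the log2 fold changes of *Gm42418*, *CT010467.1*, *Gm23935* and *Lars2* turned below 0 with a block on mouse number (-0.21, -0.23, -0.97 and -1.01) and among the mice numbered NT6 (-0.22, -0.25, -0.98 and -1.02), which rest on the same NT6 contrast, since no other number is in both groups, and without TG7.4.2, NT7.2.3 and NT7.2.4, chosen after seeing the data (-0.20, -0.21, -0.91 and -1.07). *Lars2* alone did so in the study's 5 libraries (-0.45). The cause was not tested. In isolation of sedentary mice with the study's libraries, *Lars2* was higher in SIT past the threshold (0.88), which in either direction was passed by 14.5% of the genes tested in that fit and by 1.21% with all libraries.

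Leaving out each library in turn gave, in the order *Gm42418*, *CT010467.1*, *Gm23935* and *Lars2*, -0.63 to -0.06, -0.70 to -0.12, -0.82 to -0.39 and -0.88 to -0.54 on the left. It gave 0.12 to 1.79, 0.14 to 1.91, -0.25 to 1.32 and -0.41 to 0.79 in SIT. For isolation of sedentary mice it gave -0.20 to 0.42, -0.25 to 0.38, -0.53 to 0.54 and -0.41 to 0.51. For isolation of ELE mice it gave 0.64 to 2.19, 0.68 to 2.34, 0.56 to 1.54 and 0.48 to 1.275, and for the interaction 0.43 to 2.08, 0.52 to 2.28, 0.30 to 1.867 and 0.27 to 1.46.

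The r of *Lars2* with *Gm42418* ranged from 0.638 to 0.826 in SIT and 0.629 to 0.956 on the left when each library was left out, that with *CT010467.1* from 0.675 to 0.822 and 0.679 to 0.970, and that with *Gm23935* from 0.926 to 0.965 and 0.880 to 0.966. Without the 2 libraries farthest from the median of the locus it lost its call for *Gm42418* in SIT (0.18), *CT010467.1* in SIT (0.484) and *Gm23935* on the left (0.346). With single libraries left out, calls were lost in SIT for *Gm42418* and *CT010467.1* without TG7.4.2 or NT7.2.3, and on the left for *Gm23935* without TG9.1.4, TG9.2.2, TG7.3.4 or TG9.1.2, while on the left *Gm42418* and *CT010467.1* passed without TG7.3.2. With group means subtracted it passed on the left for *Gm42418* (0.895) and *CT010467.1* (0.905). The median r over the 37 synthetases stayed below 0 with group means subtracted, by Spearman's rho and over the SIT and left libraries alone, an alternative chosen after seeing the data, but that of the mitochondrial genes with *Lars2* was 0.05 with group means subtracted and that of all 37 was 0.07 within the left libraries.

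The first part of the mouse number was not taken to pair the left libraries: deviations of same-numbered libraries on the left had r of 0.27, 0.03 and 0.13. Of the 6 left libraries 5 correlated best with their own number, and of the 6 right ones 2 did (r of 0.30, -0.10 and -0.13). No such check was run in SIT. With that replicate block *Gm42418*, *CT010467.1*, *Gm23935* and *Lars2* on the left were at -0.28, -0.36, -0.49 and -0.65 (edgeR adjusted p = 0.924 for each). In the same order, edgeR's unadjusted p was 0.0345, 0.00637, 0.0196 and 0.000317 with the block, and 0.401, 0.312, 0.0596 and 0.00930 without it. *Gm23935* also passed the unadjusted rule, and *Gm42418* and *CT010467.1* fell short of its fold change. The count of genes past the rule moved from 367 to 340 on the left and from 1350 to 1619 in SIT. DESeq2 gave no p-value for *Gm42418* or *CT010467.1* in SIT or in isolation of ELE mice. Genes past the unadjusted rule moved from 367 to 552 with DESeq2 and 691 without a filter on the left, from 1350 to 2165 without a filter, 665 in the study's libraries and 866 without the 3 libraries in SIT, and from 839 to 1624 without a filter for the interaction. When each library was left out, the count ranged from 220 to 945 on the left and from 731 to 1971 in SIT.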
